A study of Mus musculus with 6 samples.

Results

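The genes described here encode proteins by which mouse hematopoietic stem cells (HSCs) are commonly recognised and sorted, or carry the reporter alleles that mark them. They were chosen by name, as the transcript clusters whose platform gene symbol was exactly 1 of 10 listed symbols, and each gene was read from its brightest cluster. Of the 10 symbols, 8 had a cluster, among 30142 genes named on the array: Slamf1, Cd48, Cd34, Procr, Esam, Fgd5, Ctnnal1 and Ifitm1. Each of the 8 had 1 cluster, and all 8 were bright enough to test. Slamf2 is another name of Cd48 and adds no gene. Cd27 had no cluster named with its symbol alone and was not analysed here.

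The study compared HSCs sorted from the bone marrow of wild-type mice with those of CDK19-/- mice, with 3 arrays for each genotype and all mice 6 to 8 weeks old. The kinase CDK19 works in Mediator, the complex through which transcription factors reach RNA polymerase II. Marrow from the tibia, femur and ilium was depleted of lineage-positive cells, stained for HSC markers and sorted. The labels give no gate markers, no strain or sex, no count of animals behind an array and no part of Cdk19 that was deleted, and they call the arrays biological replicates. The p-values below measure the spread between these arrays.

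HSCs sit at the top of the blood system and are rare, so they are isolated by combinations of surface proteins. CD150, encoded by Slamf1, and CD48 belong to the SLAM family of immune cell receptors. Long-term HSCs of adult mice carry CD150 and lack CD48, which appears on most progenitors downstream. CD34, a sialomucin, is low on long-term HSCs of adult mice and is gained by multipotent progenitors. Procr encodes the endothelial protein C receptor and Esam an adhesion molecule of the junctions between endothelial cells, and both are carried by HSCs. Fgd5 and Ctnnal1, a relative of alpha-catenin, encode proteins inside the cell and serve through reporter alleles. Ifitm1 encodes a small membrane protein of an interferon-induced family.

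In the knockout HSCs, Ifitm1 rose 1.65-fold, while the other 7 sort markers did not pass the test. Their log2 changes ran from -0.15 for Cd34 and Fgd5 to 0.10 for Ctnnal1. The bounds of their 95% intervals, each taken for 1 gene alone, ran from -0.32 to 0.28. Of all 39543 clusters tested, 7.80% were called in either direction, 2.96% higher and 4.84% lower (limma, Benjamini-Hochberg adjusted p under 0.05). Among the 8 sort markers, limma called 1 higher and 0 lower, and at an unadjusted p under 0.05 the counts were 1 and 2. Over all 39543 clusters tested, the unadjusted counts were 3684 higher and 4864 lower. Unadjusted counts below are to be read beside these, and called counts beside the shares of 2.96% higher and 4.84% lower. The median log2 change was 0.05 over the 8 sort markers and 0.003 over all clusters tested. Values below are expression values made by the authors and taken here as log2, and the fold change rests on that reading. A level cannot be compared between genes, because brightness also depends on the probes.

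The targeted gene was lower in each library labelled knockout. Cdk19 stood at 12.49, 12.45 and 12.38 in wild-type arrays 1, 2 and 3 and at 11.49, 11.42 and 11.51 in the knockout arrays. The genotypes thus differed by -0.97 (SE 0.05), with a Benjamini-Hochberg adjusted p from limma of 3.2e-04. Its cluster still read well above the limit of 4.09 below which clusters were not tested. Whether probes outside a deleted part gave the remaining signal was not tested. Array medians lay between 4.40 and 4.48.

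Ifitm1 was the sort marker that passed the test. Its log2 value was 7.25, 7.12 and 7.13 in the 3 wild-type arrays, a mean of 7.17 ± 0.07 (SD, n = 3). In the knockout arrays it was 7.83, 7.86 and 7.98, a mean of 7.89 ± 0.08 (SD, n = 3). Every knockout array thus lay above every wild-type array, and the gap between the groups was several times the spread within either. On the log2 scale it rose by 0.72 (SE 0.07, 95% interval 0.552 to 0.895), with a Benjamini-Hochberg adjusted p from limma of 0.0028. It ran from 0.68 to 0.77 over the 13 alternative settings, with adjusted p from 0.0019 to 0.023, and passed in each.

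**Figure D1:**
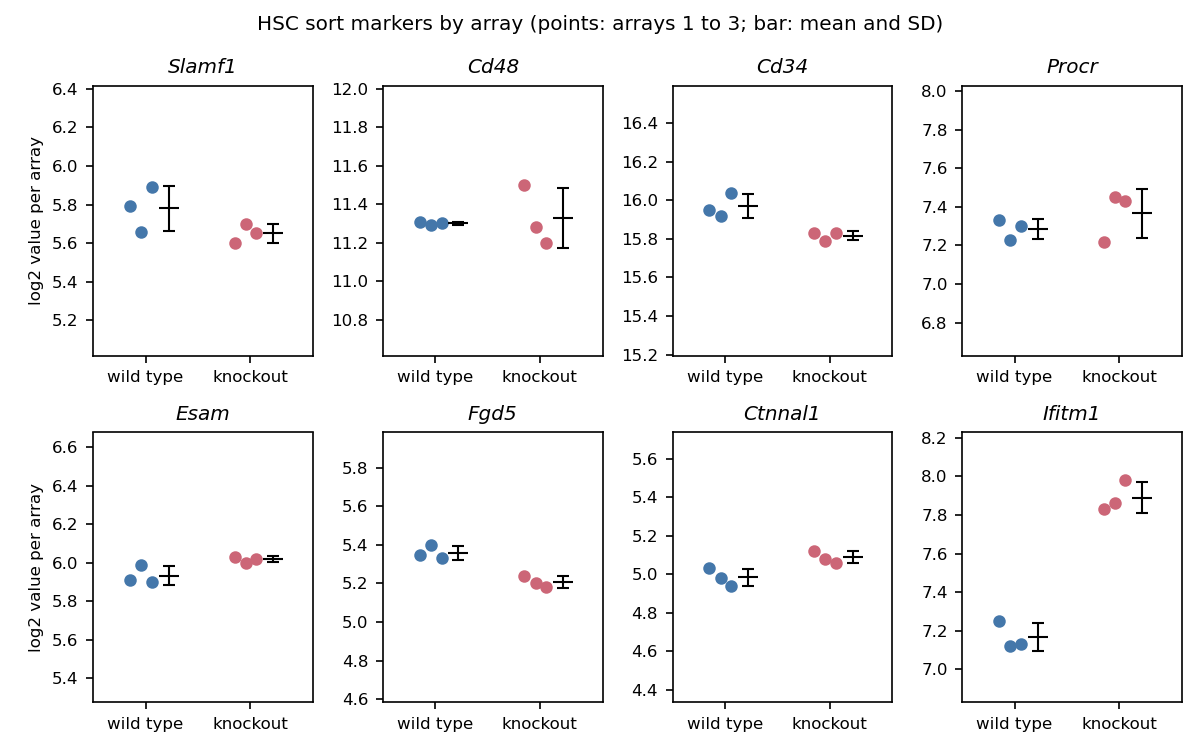
Log2 expression value (vertical axis) of each of the 8 sort markers in the 3 wild-type arrays (blue) and 3 knockout arrays (red), with the mean and SD of each group as a black bar. Every panel spans the same height on the log2 scale, so the step of Ifitm1, from 7.17 to 7.89, can be set against the small shifts of the other genes.

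The long-term HSC marker Slamf1 overlapped between genotypes. It was at 5.79, 5.66 and 5.89 in the wild-type arrays and at 5.60, 5.70 and 5.65 in the knockout arrays. The difference was -0.13 (95% interval -0.32 to 0.06; limma, Benjamini-Hochberg adjusted p = 0.42), and the middle knockout value lay just under the lowest wild-type value. Cd48, the marker absent from the usual long-term HSC gate, was at 11.31, 11.29 and 11.30 in wild type and at 11.50, 11.28 and 11.20 in knockout. The 3 wild-type arrays were almost equal, and the knockout arrays spread to both sides of them. The difference was 0.03 (95% interval -0.17 to 0.22; limma, Benjamini-Hochberg adjusted p = 0.90). Without knockout array 1, the highest, it was -0.06.

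Because CD150 and CD48 are gated together, the 2 genes were also set against each other inside each array, which removes any shift of a whole array. Cd48 minus Slamf1 was 5.52, 5.63 and 5.41 in wild type and 5.90, 5.58 and 5.55 in knockout, on the log2 scale. The groups overlapped and their means differed by 0.16 (two-sided exact permutation test, p = 0.40, where 3 arrays against 3 allow no p under 0.10). Without knockout array 1 the difference was 0.045.

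Cd34 was slightly lower in every knockout array. It was at 15.95, 15.92 and 16.04 in wild type and at 15.83, 15.79 and 15.83 in knockout, so the groups did not overlap. The difference of -0.15 (95% interval -0.25 to -0.05) did not pass the test over all clusters (limma, Benjamini-Hochberg adjusted p = 0.085). It fell short in each of the 13 alternative settings too, where adjusted p ran from 0.062 to 0.25 and the difference from -0.18 to -0.09. Inside an array, Cd34 minus Slamf1 averaged 10.19 ± 0.06 (SD, n = 3) in the wild-type arrays. In the knockout arrays it averaged 10.17 ± 0.07 (SD, n = 3). The 2 means differed by -0.02 (two-sided exact permutation test, p = 0.80, where the smallest p possible is 0.10). That difference also carries the change of Slamf1 itself, -0.13, so it cannot tell whether Cd34 alone differed.

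Among the receptors and adhesion molecules, Procr was at 7.33, 7.23 and 7.30 in wild type and at 7.22, 7.45 and 7.43 in knockout. Knockout array 1 was the lowest of the 6 and the other 2 knockout arrays the highest. The difference was 0.08 (95% interval -0.115 to 0.275; limma, Benjamini-Hochberg adjusted p = 0.65). Without knockout array 1 it was 0.15, with an adjusted p of 0.29. Esam was at 5.91, 5.99 and 5.90 in wild type and at 6.03, 6.00 and 6.02 in knockout. The groups were apart by the smallest step the file can show, 0.01, and the difference of 0.08 did not pass (95% interval -0.06 to 0.23; limma, Benjamini-Hochberg adjusted p = 0.50).

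The 2 reporter genes differed in opposite directions by small amounts. Fgd5 was at 5.35, 5.40 and 5.33 in wild type and at 5.24, 5.20 and 5.18 in knockout, a difference of -0.15 (95% interval -0.30 to -0.01; limma, Benjamini-Hochberg adjusted p = 0.20). Ctnnal1 was at 5.03, 4.98 and 4.94 in wild type and at 5.12, 5.08 and 5.06 in knockout, a difference of 0.10 (95% interval -0.04 to 0.25; adjusted p = 0.40). Neither pair of groups overlapped, and neither gene passed. Over the 8 sort markers, groups were apart in 3 genes with the knockout higher and 2 with it lower, and overlapped in 3. Over all clusters tested, groups were apart in 26.5%, 11.6% with the knockout higher and 14.9% with it lower.

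The bright and the dim ends of the array scale separated these genes. In each array at least 98.49% of all 65956 clusters were dimmer than Cd34, and at least 94.21% were dimmer than Cd48. For Slamf1 that share lay between 67.5% and 70.1%, for Esam between 70.2% and 71.5%, for Fgd5 between 62.8% and 65.3% and for Ctnnal1 between 59.9% and 62.2%. Procr lay between 80.2% and 82.0%, and Ifitm1 between 79.5% in wild type and 84.6% in knockout. These positions place each probe set on its array and do not rank the transcripts. They do not tell which gate was used.

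Genes of the wider gates changed in both directions. The labels do not say whether any of them was stained for. Of 19 tested antigens and reporters used beside the sort markers, 3 rose, 4 fell and 12 did not pass, with a median log2 change of 0.02. Kit, the stem cell factor receptor that defines the usual gate, was at 14.54, 14.53 and 14.53 in wild type and at 14.06, 14.03 and 14.09 in knockout. Kit fell by 0.47 (SE 0.04; limma, Benjamini-Hochberg adjusted p = 0.0013). Flt3, a receptor of multipotent and lymphoid-primed progenitors by which they are parted from HSCs, was at 14.52, 14.53 and 14.49 and at 13.68, 13.58 and 13.61. Flt3 thus fell by 0.89 (SE 0.04; adjusted p = 2.2e-04), a larger step than that of any sort marker measured. In bulk RNA, fewer cells of a type and less RNA per cell cannot be told apart.

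The other falls in this group were Hlf, a transcription factor gene of HSCs, with a log2 change of -0.56, and Cd244a, a SLAM family receptor gene, with -0.47. The rises were genes of 3 surface proteins. Itga2b (CD41) rose by 0.56, Itgb3 (CD61) by 0.60 and the tetraspanin gene Cd9 by 0.44 (limma, Benjamini-Hochberg adjusted p from 0.0069 to 0.017). Without wild-type array 2 the count of rises was 1, and after quantile normalization or with the dimmest 60% of clusters left out it was 5. Itgav and Krt18 differed by 0.24 and 0.29 and did not pass (adjusted p = 0.050 and 0.072). The angiopoietin receptor gene Tek differed by 0.16 and did not pass (adjusted p = 0.18). Another integrin gene, Itga2, differed by -0.24 and did not pass (adjusted p = 0.10), though every knockout array lay below every wild-type array. At an unadjusted p under 0.05, limma gave 7 rises and 7 falls among the 19.

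**Figure D2:**
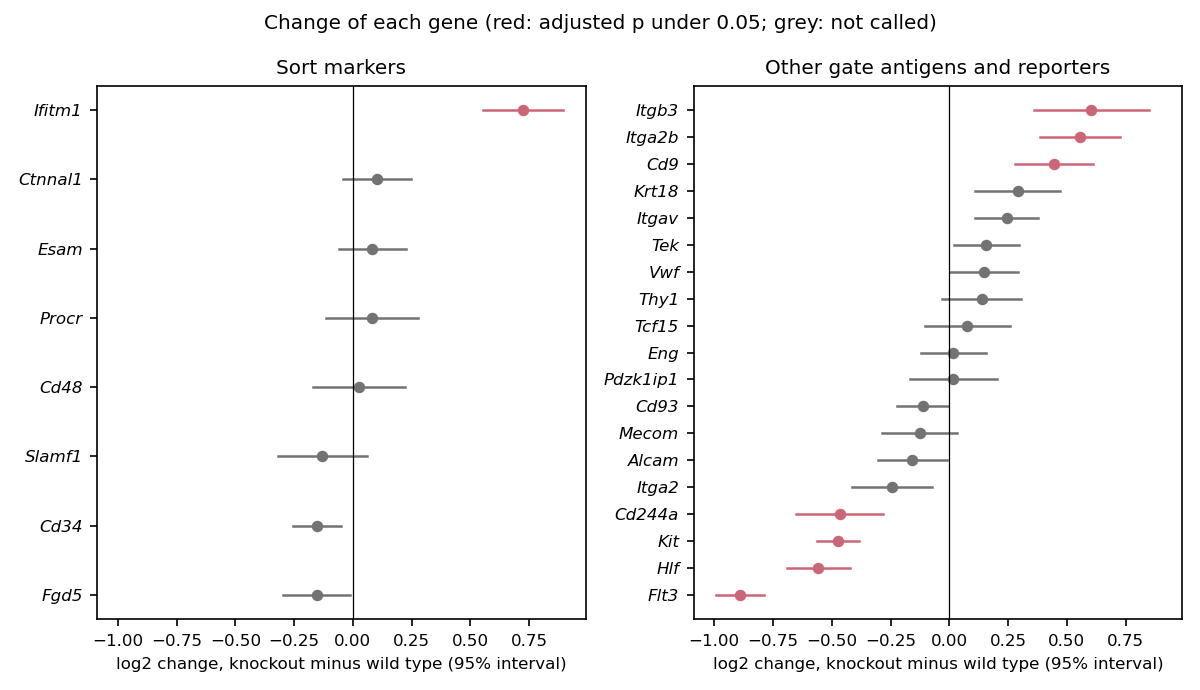
Log2 change, knockout minus wild type, with its 95% interval (horizontal axis) for the 8 sort markers (left) and 19 other antigens and reporters used in HSC gates (right); red marks an adjusted p under 0.05. Ifitm1 is the red point among the sort markers, and Flt3, at -0.89, is the lowest point on the right.

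Slamf1 and Cd48 lie in 1 stretch of chromosome 1 with other SLAM family genes. Among genes that the RefSeq table classes as protein-coding, the order there was Cd244a, Ly9, Slamf7, Cd48, Tma7-ps, Slamf1, Cd84 and Slamf6. The table gives Tma7-ps that class although its symbol is that of a pseudogene. Genes of this family on both sides of the pair were called lower in the knockout. Cd84, an adhesion receptor next to Slamf1, was at 9.67, 9.71 and 9.60 in wild type and at 9.28, 9.13 and 9.13 in knockout, and fell by 0.48 (limma, Benjamini-Hochberg adjusted p = 0.0092). Cd244a, the receptor for CD48, was at 7.33, 7.21 and 7.40 and at 6.87, 6.76 and 6.91, and fell by 0.47 (adjusted p = 0.016). With wild-type array 1 or 3 left out, Cd244a no longer passed (adjusted p = 0.064 and 0.071), and Cd84 alone of the family was called. Ly9 and Slamf6 differed by -0.32 and -0.23 and did not pass (adjusted p = 0.077 and 0.069), though every knockout array lay below every wild-type array in both. Of the 7 receptors and adaptors of this family that were tested, Slamf1 and Cd48 among them, 2 fell, 0 rose and 5 did not pass. At an unadjusted p under 0.05 limma gave 4 falls and 0 rises, beside 4864 falls and 3684 rises over all 39543 clusters tested. The median log2 change was -0.23. Another 4 members, Slamf7 among them, were too dim to test.

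The 250 bases before the RefSeq start of these neighbouring sort markers are shown because their levels did not pass the test while genes nearby fell. Capitals mark matches, on either strand, to the RUNX core TGTGGT, the ETS core GGAAGT or the interferon response core (GAAA, any 2 bases, GAAA). Sequences are RefSeq's, build GRCm38.p6, from chr1:171766882-171767131, plus strand, and chr1:171681742-171681991, plus strand.
Slamf1: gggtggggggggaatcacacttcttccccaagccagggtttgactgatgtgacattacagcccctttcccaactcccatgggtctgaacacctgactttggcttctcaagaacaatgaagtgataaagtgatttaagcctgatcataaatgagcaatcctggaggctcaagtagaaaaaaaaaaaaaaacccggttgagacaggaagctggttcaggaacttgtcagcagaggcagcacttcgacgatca
Cd48: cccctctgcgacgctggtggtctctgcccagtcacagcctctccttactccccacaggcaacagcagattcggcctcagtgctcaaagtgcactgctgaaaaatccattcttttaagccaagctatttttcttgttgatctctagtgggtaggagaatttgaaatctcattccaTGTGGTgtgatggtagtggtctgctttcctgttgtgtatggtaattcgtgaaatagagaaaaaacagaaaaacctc
The Cd48 window held 1 match to the RUNX core and none to the other motifs, and the Slamf1 window held no match to any of the 3. Over all 32851 windows of this length, 14.0% held the RUNX core, 19.7% the ETS core and 2.98% the interferon response core. A match is a stretch of letters and no evidence of binding. Of the 8 sort markers, 7 had a window in the table.

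Ifitm1 lies among other genes of its family on chromosome 7, in the order Ifitm5, Ifitm2, Ifitm1, Ifitm3 and Ifitm6. Ifitm2 was at 12.99, 12.64 and 12.73 in wild type and at 12.86, 12.87 and 13.48 in knockout. Ifitm3 was at 13.03, 12.86 and 12.71 and at 12.88, 12.98 and 13.31. In both genes the groups overlapped and knockout array 3 was the highest of the 6. Ifitm2 differed by 0.28 (95% interval -0.15 to 0.72; limma, Benjamini-Hochberg adjusted p = 0.45), and by 0.08 without knockout array 3. Ifitm3 differed by 0.19 (95% interval -0.12 to 0.50; adjusted p = 0.48). The upper bound for Ifitm2 equals the change of Ifitm1 to 2 decimals, and whether these genes differ in response was not tested. Ifitm6 differed by -0.13 (adjusted p = 0.34). Of 6 family members tested, 1 rose, 0 fell and 5 did not pass, with 0 falls also at an unadjusted p under 0.05 (median log2 change 0.12). These genes are related in sequence, so a cluster may report some transcript of another copy.

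The windows before Ifitm1 and its neighbours Ifitm2 and Ifitm3 are shown to set the gene that rose beside the 2 that did not pass, with capitals as above. They come from chr7:140967826-140968075, plus strand, chr7:140955962-140956211, minus strand, and chr7:141010745-141010994, minus strand.
Ifitm1: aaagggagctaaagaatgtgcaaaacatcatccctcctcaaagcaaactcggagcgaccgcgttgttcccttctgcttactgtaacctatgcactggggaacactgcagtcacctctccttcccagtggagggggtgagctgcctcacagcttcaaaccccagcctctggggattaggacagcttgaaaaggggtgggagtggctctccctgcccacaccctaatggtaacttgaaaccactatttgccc
Ifitm2: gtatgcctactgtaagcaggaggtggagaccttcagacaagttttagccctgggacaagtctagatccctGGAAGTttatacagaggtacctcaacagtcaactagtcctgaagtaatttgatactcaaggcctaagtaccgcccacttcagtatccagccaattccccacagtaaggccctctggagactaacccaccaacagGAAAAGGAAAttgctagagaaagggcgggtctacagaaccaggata
Ifitm3: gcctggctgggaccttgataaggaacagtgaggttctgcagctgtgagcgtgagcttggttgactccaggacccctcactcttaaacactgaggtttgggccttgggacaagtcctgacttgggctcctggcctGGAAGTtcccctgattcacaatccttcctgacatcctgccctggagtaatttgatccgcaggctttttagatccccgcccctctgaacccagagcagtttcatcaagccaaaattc
The Ifitm2 window held 1 match to the interferon response core and 1 to the ETS core, and the Ifitm3 window 1 match to the ETS core. The Ifitm1 window, before the gene that rose, held no match to any of the 3 motifs.

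**Figure D3:**
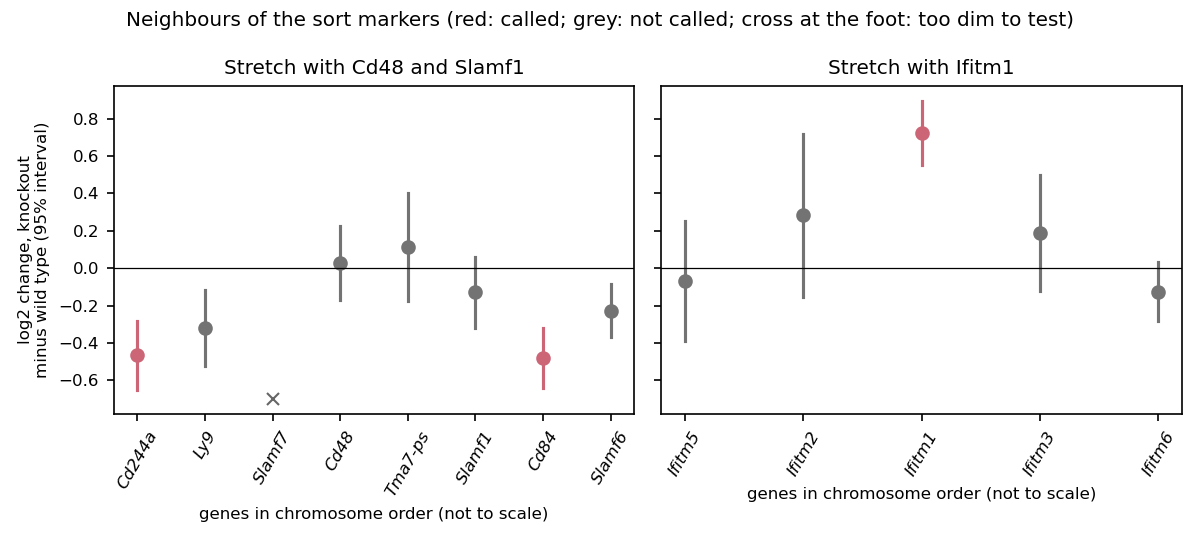
Log2 change, knockout minus wild type, with its 95% interval (vertical axis) for genes in chromosome order around Cd48 and Slamf1 (left) and around Ifitm1 (right); red points passed the test and the cross marks a gene too dim to test. Cd84 and Cd244a, at -0.48 and -0.47, are the called genes on the left, and Ifitm1, at 0.72, is the called gene on the right.

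The genes whose values followed Ifitm1 most closely over the 6 arrays were found among 20260 named clusters by the distance between values centred on each gene's mean. The nearest was Ccrl2, an atypical chemoattractant receptor gene, at a distance of 0.12 on the log2 scale. It was at 10.43, 10.26 and 10.34 in wild type and at 11.07, 11.03 and 11.27 in knockout. The next was Gcsh, a gene of the glycine cleavage system, at a distance of 0.13, with a mean of 8.18 in wild type and 8.90 in knockout.

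The partners of the sort markers were followed through lists of their pathways. Over all clusters tested, limma called 2.96% higher and 4.84% lower. Around Procr, which presents protein C to its activator on the cell surface, 2 of 7 tested genes rose and 0 fell. F2r, the thrombin receptor gene, was at 9.35, 9.25 and 9.34 in wild type and at 10.47, 10.44 and 10.48 in knockout, a rise of 1.15 (limma, Benjamini-Hochberg adjusted p = 2.2e-04). F3, encoding tissue factor, which starts clotting, was at 4.76, 4.72 and 4.87 and at 6.30, 5.88 and 6.56, a rise of 1.46 (adjusted p = 0.0046). Thbd, encoding thrombomodulin, which pairs with thrombin to activate protein C, differed by 0.32, and F2rl3, another thrombin receptor gene, by -0.29, and neither passed (adjusted p = 0.18 for each). F2rl3 was the 1 gene of this list that was lower at an unadjusted p under 0.05. The list's median log2 change was 0.13. Proc, F2 and Serpina5 were too dim to test.

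Of 9 tested sialomucins and adhesion partners of CD34 and ESAM, 1 rose, 0 fell and 8 did not pass. At an unadjusted p under 0.05, limma put 1 lower, Cd34 itself. Selp, encoding P-selectin of platelets and endothelium, was at 7.17, 7.22 and 7.23 in wild type and at 8.22, 7.98 and 8.24 in knockout, a rise of 0.94 (limma, Benjamini-Hochberg adjusted p = 0.0021). The median of this list was 0.05. Among 5 tested relatives of Fgd5, that gene included, 0 rose and 0 fell by limma, while at an unadjusted p under 0.05 there were 1 rise and 3 falls (median log2 change -0.15). Fgd4 differed by -0.22 and Fgd2 by -0.18 (adjusted p = 0.13 and 0.14). Of 8 tested genes of CD27 signalling, 3 rose and 0 fell, with 0 falls also at an unadjusted p under 0.05 (median 0.25). Nfkb2 and Relb, the partners of the noncanonical NF-kB pathway, rose by 0.84 and 0.61 (adjusted p = 0.0017 and 0.0071). The inhibitor of apoptosis gene Birc3 rose by 0.39, a call lost in 8 of 13 alternative settings, among them each knockout array left out and wild-type array 2 or 3 left out (adjusted p up to 0.14). Its relative Birc2 and the adaptor gene Traf2 differed by 0.46 and -0.15 and did not pass (adjusted p = 0.060 and 0.25). Map3k14, Traf5 and Siva1 differed by -0.12, -0.14 and 0.11 and did not pass either (adjusted p = 0.31, 0.40 and 0.59). Cd27 itself was not analysed, and Cd70 was too dim to test.

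Markers of other cells were read on the same arrays, where limma called 2.96% of all clusters tested higher and 4.84% lower. Of 9 tested markers of multipotent and lymphoid-primed progenitors, Cd34 and Cd48 among them, 6 fell, 0 rose and 3 did not pass, with 0 rises also at an unadjusted p under 0.05 (limma; median log2 change -0.37). Dntt, the DNA polymerase of lymphoid precursors, was at 12.77, 12.68 and 12.78 in wild type and at 11.35, 11.37 and 11.48 in knockout. Il7r, the interleukin-7 receptor gene, fell by 1.08 and Notch1 by 0.91. The chemokine receptor gene Ccr9 differed by -0.14 and did not pass (adjusted p = 0.31). The mean log2 value over the 9 named members ran from 10.09 to 10.14 in wild type and from 9.52 to 9.55 in knockout. The part of these markers in the changes of Ifitm1, Kit or the sort markers was not tested. Among genes of granulocyte-macrophage progenitors 3 of 10 rose and 2 fell, with 4 rises and 2 falls at an unadjusted p under 0.05. Ms4a3 rose by 1.08 and the granule protease gene Ctsg by 0.54, while the transcription factor genes Gfi1 and Irf8 fell by 0.39 and 0.40. Fcgr3 and Csf1r differed by 0.18 and 0.17 and did not pass (adjusted p = 0.18 and 0.27). Mpo, Csf3r and Elane, with means over the 6 arrays of 16.90, 12.44 and 10.58, differed by -0.05, -0.02 and 0.10. They did not pass either (adjusted p = 0.39, 0.88 and 0.64). The rises numbered 1 with the replicate block and when knockout array 1 or 3, or wild-type array 2 or 3, was left out. The falls numbered 0 with the replicate block or when any wild-type array was left out, and 1 when knockout array 1 was. The mean of the 11 named members ran from 8.78 to 8.87 in wild type and from 8.94 to 9.04 in knockout.

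Of 8 tested megakaryocyte and erythroid genes 2 rose, Itga2b and Gp9 (0.56), and 1 fell, Car1, a carbonic anhydrase of erythroid progenitors, by 1.04. The platelet chemokine gene Pf4 differed by 0.26 and the transferrin receptor gene Tfrc by 0.11, and neither passed (adjusted p = 0.11 and 0.34). Endothelial cells also express Procr, Esam, Cd34 and Fgd5, and 7 of 13 named endothelial markers were too dim to test, Cdh5 (VE-cadherin) and Kdr among them. Of the 6 tested, 2 fell and 0 rose, with 2 rises at an unadjusted p under 0.05. Pecam1 (CD31), which HSCs also carry, fell by 0.53, and the Robo4 call, at -0.43, was lost with any 1 array left out. Vwf, encoding von Willebrand factor, differed by 0.15 and did not pass (adjusted p = 0.22). The mean over the 13 named endothelial genes ran from 5.62 to 5.63 in wild type and from 5.57 to 5.58 in knockout. Among 14 named antigens of mature cells, the T cell genes Cd3e and Cd8a and the B cell gene Ms4a1 were too dim to test. Means over the 6 arrays were 12.85 for Nkg7, 11.43 for Ly6c2, 8.98 for Itgam and 6.38 for Cd4. The remaining tested antigens ran from 4.24 for Adgre1 to 5.26 for Cd79a. Of the 11 tested, the myeloid integrin gene Itgam rose by 0.42 and the B cell receptor gene Cd79a fell by 0.61. The Itgam call was lost without wild-type array 2 or 3 and with the replicate block. Without wild-type array 1, 2 rises were called. Nkg7 and Klrb1c, genes of natural killer cells, differed by 0.29 and -0.20 and did not pass (adjusted p = 0.094 and 0.15). For stromal genes the counts were 0 rises and 0 falls of 4 tested, with 1 fall at an unadjusted p under 0.05, and 4 more were too dim. Pdgfrb differed by -0.17 and the collagen gene Col1a1 by -0.09 (adjusted p = 0.20 and 0.46). In the mast cell and basophil list 2 of 6 rose, Cpa3 by 0.41 and Gzmb by 0.83, and the count was 1 without wild-type array 3. The protease genes Prss34 and Mcpt8 differed by -0.31 and -0.13 and did not pass (adjusted p = 0.17 and 0.43).

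**Figure D4:**
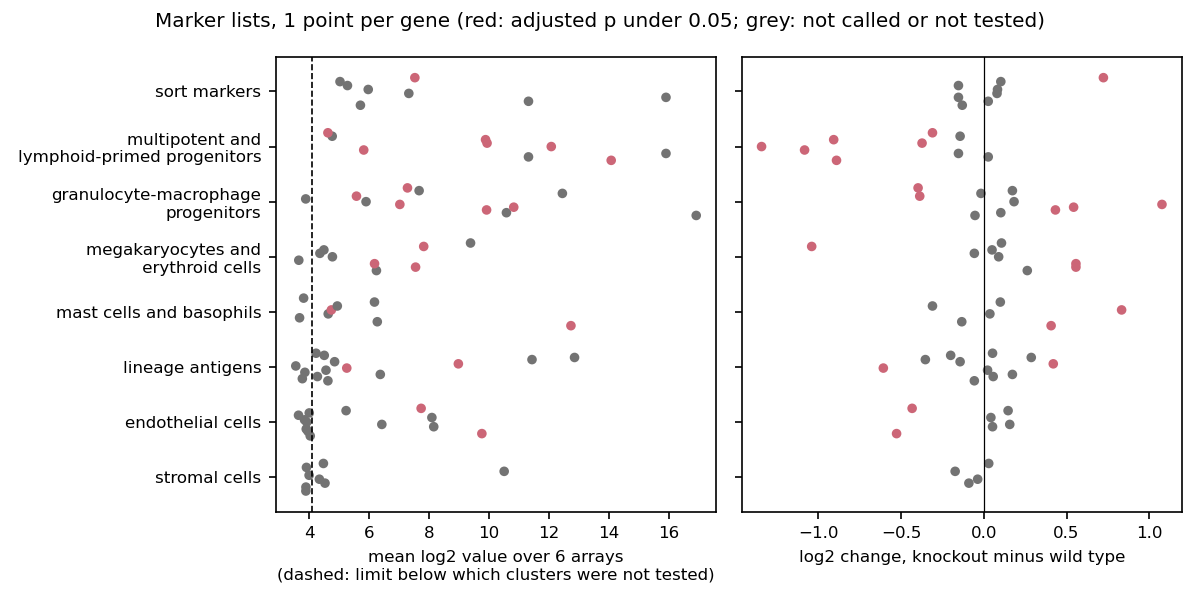
Mean log2 value over the 6 arrays (left) and log2 change, knockout minus wild type (right), for the genes of 8 marker lists, 1 point a gene; red marks an adjusted p under 0.05 and the dashed line the limit of 4.09. The sort markers span from near the limit to Cd34 at 15.89 and cluster near a change of 0 apart from Ifitm1, while 8 of the 9 multipotent and lymphoid-primed progenitor markers lie below 0, 6 of them called.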

How the data were processed

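Biotin-labelled total RNA was hybridised to 6 Affymetrix arrays, per the labels' protocols. The deposited table holds the authors' values for 65956 transcript clusters, taken here as log2. The submitters' processing notes name MAS5, with no version or role; for background correction, summary and normalization, no method is stated in these sources. A cluster is the set of probes for 1 gene or transcript. Platform annotation gave 30604 clusters 1 gene symbol, updated through gene IDs for 827. The dimmest 40% of clusters by mean were left out, and genotype was fitted with limma 3.58.1 (R 4.3.3) with an intensity trend, two-sided, Benjamini-Hochberg adjusted over 39543 clusters. Differences inside an array were tested by exact permutation (scipy 1.17.1). The limma fit, and no other step, was tested on simulated data. Precision is limited by the number of arrays.

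The members and lists were chosen with earlier results of these data known. From each list, the text names up to 4 called genes and the 2 nearest to a call. Cd9, Itgb3, Cd244a as a gate antigen, Ifitm3, Proc, F2, Serpina5, Slamf7, Tma7-ps, Ifitm5, Cdh5, Kdr, Cd3e, Cd8a and Ms4a1 were named after their values were seen. So were Itga2, Map3k14, Traf5, Siva1, Cd70, Tie1, Emcn, Ly6c2, Cd4, Adgre1, Mpo, Csf3r and Elane. Ly6a, which encodes Sca-1 of the usual gate, was not analysed here. Alternatives were quantile normalization, a common median, no filter or a stricter one on dim clusters, no trend, a replicate block, the mean of a gene's clusters, and each array left out.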

Additional observations from a re-analysis of the deposited data

How the results depend on the processing

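The call of Ifitm1, and the absence of a call for the other 7 sort markers, held in all 13 alternatives run. With 1 array left out, 540 to 970 clusters were called higher and 761 to 1507 lower, against 1172 and 1914 with all arrays. Cd48, never called, changed sign with arrays shifted to a common median (-0.003) and without knockout array 1; with 1 array left out it ran from -0.06 to 0.09. Cd34 minus Slamf1 was 0.026 after quantile normalization and ran from -0.055 to 0.015 with 1 array left out, against -0.023. The labels do not say whether same-numbered arrays were paired. Deviations of same-numbered arrays from their group means had correlations of -0.138, -0.097 and 0.025. Differently numbered arrays were not set beside them, so these values do not settle it. With the replicate block, 630 clusters were called higher and 1083 lower, and Ifitm1 kept its change of 0.72 with an adjusted p of 0.023 (limma). Slamf1, Esam, Fgd5 and Ctnnal1 lay within 2 log2 units of the limit for dim clusters. Each sort marker had 1 cluster, so taking the mean of a gene's clusters changed none of its values.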
